A study of Caenorhabditis elegans with 2 samples.

Results

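The genes examined were elt-1, elt-2, elt-3, elt-6, elt-7 and egl-18, GATA transcription factor genes of the epidermis and intestine of the nematode Caenorhabditis elegans. They were chosen by name and all 6 were found, among 19973 protein-coding genes of the nuclear chromosomes. At each gene the chromatin immunoprecipitation and sequencing (ChIP-seq) peaks of MDL-1 were read in a window from 5 kb upstream of the gene to its 3' end. The study holds 1 group of 2 biological replicates: whole L1 larvae of pooled male and female animals of strain OP106, genotype unc-119(ed3) III; wgIs106, with age unknown. Both replicates carry a transgene of eGFP-tagged mdl-1, and MDL-1 was precipitated by its tag. MDL-1 is a protein of the MAD family, a partner of MXL-1 that lowers transcription, and its family binds the E-box CACGTG. There is no untagged or wild-type group, and whole larvae mix epidermis, intestine and all other tissues, so a site bound in a few cells and one bound weakly in many cannot be told apart.

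GATA factors are zinc finger proteins that bind sites with GATA at their core. In C. elegans ELT-1 specifies the epidermis in the embryo, and ELT-3 acts after it in differentiating epidermal cells. EGL-18 and ELT-6 act together in the seam cells, the stem-like cells of the lateral epidermis, and in the vulva. ELT-2 is the main regulator of intestinal genes, with ELT-7 acting beside it.

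None of the 6 genes had a summit in the optimal list, which the authors kept by irreproducible discovery rate (IDR), against 5393 of the 19973 protein-coding genes (27.0%) under the same window rule. A summit is the position of highest signal in a peak. The promoter window, 1000 bp before the 5' end and 200 bp after it, lies within the larger window. It could therefore hold no IDR summit at the 6 genes, and 12.8% of all protein-coding genes had one there. Summits of the relaxed pooled list, which takes in the IDR peaks, were present at all 6 genes, against 73.8% of all protein-coding genes. The highest summits of the 6 genes stood at elt-3 and egl-18, which were also the only 2 of the 6 genes with a summit among the 7740 highest pooled peaks, a list 2 times as long as the IDR list. In that longer list, 2 of the 6 genes compared with 41.8% of all genes. These shares depend on window length, as given below. With 6 genes chosen by name no test was made of them.

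The lists are those of the authors. The IDR list held 3870 peaks with pooled scores from 32.7 to 680 and a median of 58.8. The relaxed lists of the pooled reads and of each replicate held 30000 peaks each, the pooled one ending at a score of 6.10. The score is the peak caller's own value on a scale that the sources used here do not give, so scores and ranks were read within 1 list only. The lists hold no read counts and depth is unknown.

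The windows of the 6 genes lay on chromosomes IV, V and X (ce11, 1-based), all genes on the plus strand. Those of egl-18 (WBGene00001186, IV, 1902322 to 1917840) and elt-6 (WBGene00001253, IV, 1917977 to 1921643) overlap, since 136 bp separate the genes and the elt-6 upstream region runs into egl-18. Of the other epidermal genes, elt-1 (WBGene00001249) spans IV, 9614995 to 9620280, and elt-3 (WBGene00001251) X, 13934874 to 13941216. The intestinal genes elt-2 (WBGene00001250) and elt-7 (WBGene00015981) span X, 10481240 to 10483441, and V, 4770670 to 4773086. Window lengths were 20.5 kb for egl-18, 11.3 kb for elt-3, 10.3 kb for elt-1, 8.7 kb for elt-6, 7.4 kb for elt-7 and 7.2 kb for elt-2. A longer window can hold more summits: 38.0% of genes in the quartile of longest windows had an IDR summit, and 21.7% in that of the shortest. Of the 6 genes, 4 fell in the longest quartile and 2 in the next.

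The sequences that follow are the 101 bases around the summits with the strongest signal at the epidermal genes, shown because they came closest to the IDR list, with the elt-3 exon site that held a CACGTG and the IDR summit past that gene. Capitals mark CACGTG and, as GATA sites, TGATAA and AGATAA on either strand, so TTATCA is a TGATAA read from the other strand. All are the plus strand of ce11, read from the RefSeq WBcel235 genome.
elt-3 long intron, 2048 bp from the 5' end, chrX:13936872-13936972: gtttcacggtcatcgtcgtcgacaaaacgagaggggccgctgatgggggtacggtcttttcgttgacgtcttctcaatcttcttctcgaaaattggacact
elt-3 long intron, 3230 bp, chrX:13938054-13938154: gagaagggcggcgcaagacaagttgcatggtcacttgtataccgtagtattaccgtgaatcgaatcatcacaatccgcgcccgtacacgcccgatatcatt
elt-3 intron, 4646 bp, chrX:13939470-13939570: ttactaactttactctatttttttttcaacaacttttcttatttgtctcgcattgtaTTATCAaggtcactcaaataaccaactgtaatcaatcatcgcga
elt-3 coding exon, 5577 bp, chrX:13940401-13940501: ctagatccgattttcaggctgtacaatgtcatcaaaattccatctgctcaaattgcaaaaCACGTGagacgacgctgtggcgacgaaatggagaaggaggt
elt-3 past the 3' end, IDR summit, chrX:13941416-13941516: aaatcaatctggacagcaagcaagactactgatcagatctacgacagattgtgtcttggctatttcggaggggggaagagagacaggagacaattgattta
egl-18 upstream, 1146 bp, chrIV:1901126-1901226: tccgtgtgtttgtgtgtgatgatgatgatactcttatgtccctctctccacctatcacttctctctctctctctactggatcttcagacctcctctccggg
egl-18 first intron, 2118 bp, chrIV:1904390-1904490: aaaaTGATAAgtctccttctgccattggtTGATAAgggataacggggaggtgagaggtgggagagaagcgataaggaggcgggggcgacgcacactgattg

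**Figure D1:**
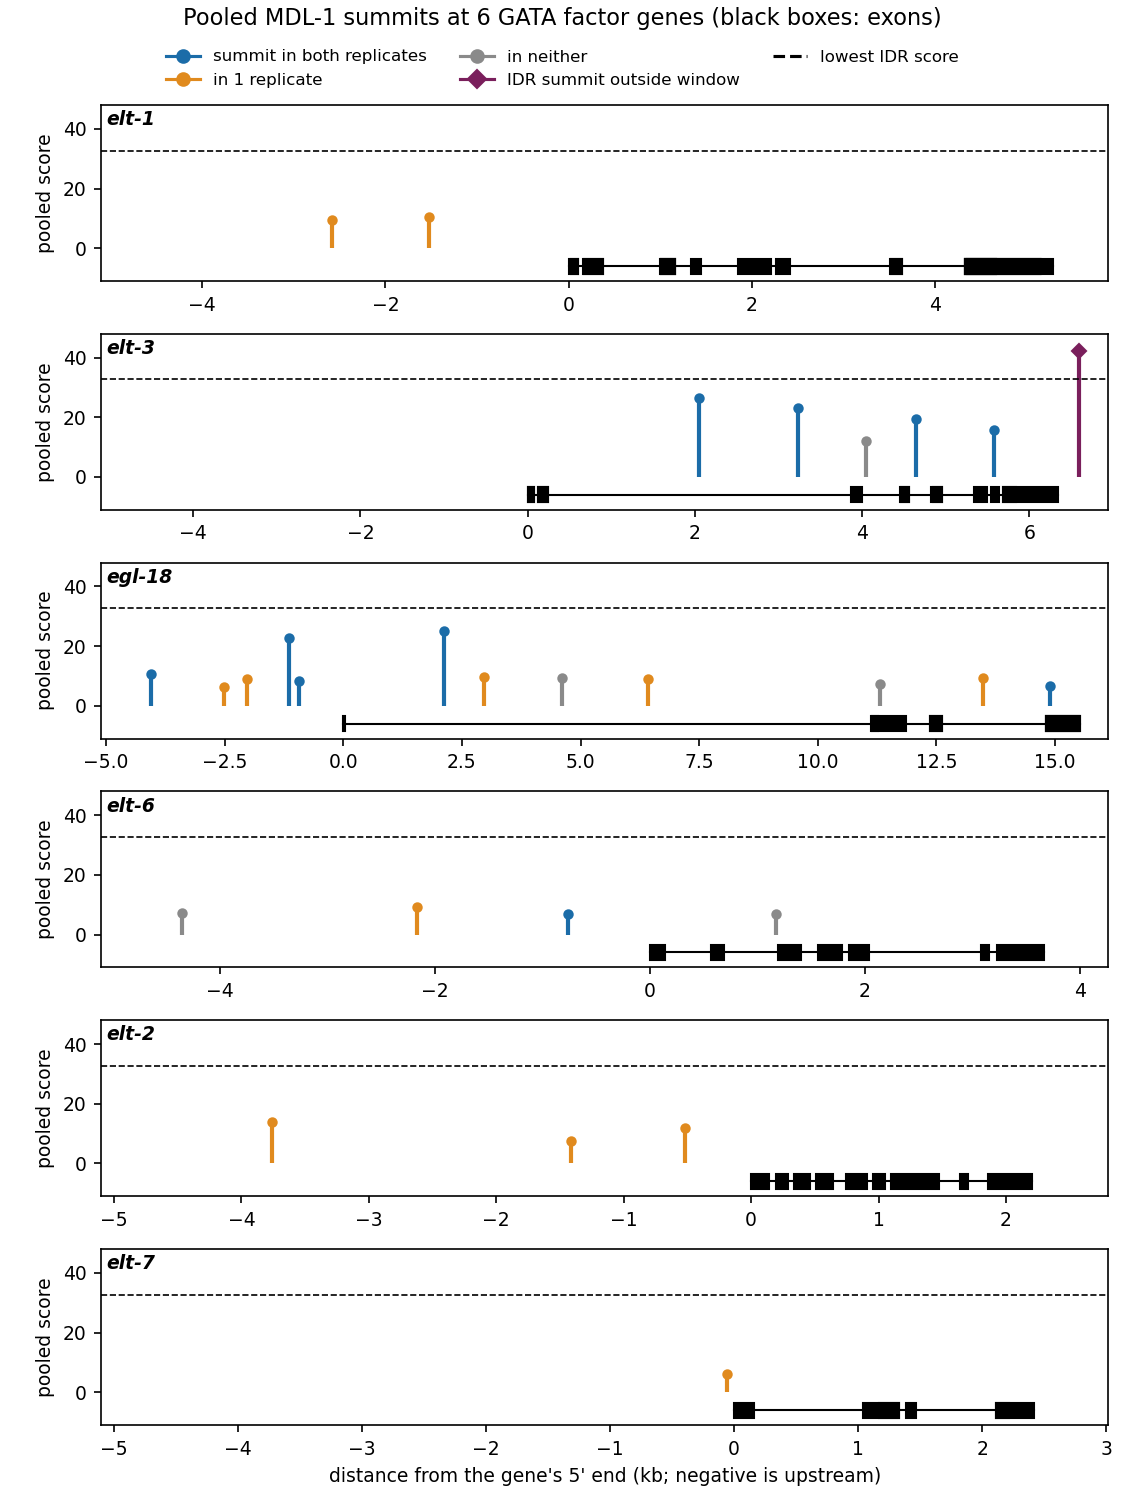
Pooled score (y axis, the authors' caller's value) of each relaxed pooled summit by its distance from the gene's 5' end (x axis, kb), with exons as black boxes. Every summit inside the 6 windows lies under the dashed line at 32.7, the lowest score of the IDR list, and the diamond past the 3' end of elt-3 is an IDR summit with a score of 42.4.

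At elt-3 the pooled signal lay inside the gene and just past it. The pooled list placed 5 summits in its window, all of them between 2048 and 5577 bp downstream of the 5' end of the longest transcript, and none in the 5 kb before the gene. Upstream of elt-3, replicate 1 alone listed a summit, 1712 bp before the gene with a score of 4.55 and rank 17355. The highest, in the longest intron at X, 13936922, had a pooled score of 26.6 and rank 4847, or 81.1% of the lowest score in the IDR list. In replicate 2 a summit 10 bp away ranked 2928 with a score of 19.0, within the number of peaks that the IDR list holds. In replicate 1 the nearest summit, 40 bp away, ranked 13230 with a score of 5.68, and another 172 bp away ranked 7250 with 10.1. The replicates thus ranked this site differently.

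The next elt-3 summit, at 13938104, had a pooled score of 23.1 and rank 5581. It ranked 6640 in replicate 1 and 7819 in replicate 2, so both replicates placed it below their highest 3870 peaks. This summit lies 639 bp upstream of the 5' end of transcript K02B9.4a.1, one of several annotated transcripts that start inside the gene. A summit at 13939520, with a pooled score of 19.6 and rank 6514, lies 180 bp downstream of the start of transcript K02B9.4c.1. Its ranks were 11532 in replicate 1 and 14855 in replicate 2. The weakest of the 5, at 13938925, had a pooled score of 12.1 and no summit within 100 bp in either replicate.

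The fifth elt-3 summit lay in a coding exon at 13940451, with a pooled score of 15.8 and rank 8254. It was the only relaxed pooled summit of the 24 in all 6 windows with a CACGTG within 50 bp, at 13940461 to 13940466, as capitals show in the sequence above. Replicate 1 ranked it 5924, with a score of 12.6, and replicate 2 ranked it 24997, with a score of 4.69, at the full 100 bp allowed between matching summits. The elt-3 gene ends at 13941216, and 250 bp beyond that end, in intergenic sequence at 13941466, stood an IDR summit with a pooled score of 42.4 and rank 2914. It ranked 6992 in replicate 1 and 1517 in replicate 2 and held neither CACGTG nor a searched GATA site within 50 bp. This was the IDR summit nearest to any of the 6 windows, and only the 3' limit of the window leaves it out.

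At egl-18 the summits were many and mostly weak. The pooled list held 12 in its window, or 0.585 per kb of window, against 0.302 per kb over all protein-coding genes. In the quartile of longest windows, where egl-18 falls, the rate was 0.344 per kb. The highest, in the first intron at IV, 1904440, had a pooled score of 25.2 and rank 5141. It ranked 6708 in replicate 1 and 5495 in replicate 2, with scores of 11.0 and 12.1. The sequence there held TGATAA at 2 places. The next, 1146 bp upstream of the gene at 1901176, had a pooled score of 22.8 and rank 5649. The replicate summits matched to it ranked 5530 in replicate 1 and 5519 in replicate 2. They lay on opposite sides of the pooled summit, 1108 and 1241 bp upstream of the gene, so more than 100 bp apart. The replicate 2 summit nearest to that of replicate 1 lay 1040 bp upstream of the gene, with rank 26982. The remaining 10 summits of the egl-18 window had pooled scores from 6.32 to 10.5.

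The elt-6 window held 4 pooled summits, 3 of which lie within egl-18 and were also counted there. The highest, in an egl-18 intron 2167 bp upstream of elt-6 at 1915810, had a pooled score of 9.32 and rank 17178. Replicate 2 ranked it 6013, with a score of 11.4, while replicate 1 had no summit within 100 bp. Inside elt-6 itself the pooled list had 1 summit, in an intron, with a score of 6.94, and neither replicate had one within 100 bp of it. All 4 elt-6 scores lay within the range of the 10 weaker egl-18 summits, 3 of which are the same peaks.

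At elt-1, the gene for the factor that specifies the epidermis, both pooled summits lay upstream. The one at IV, 9613466, 1529 bp before the gene, had a pooled score of 10.6 and rank 14099, and the one 2581 bp before it had a score of 9.33 and rank 17147. Replicate 1 had both, ranked 11982 and 18444, and replicate 2 had neither within 100 bp. The best summit of replicate 2 at elt-1 lay instead inside the gene, 1212 bp from the 5' end, with rank 10396. Another of replicate 2, 477 bp inside the gene with rank 17396, lay within 100 bp of one of replicate 1, at 554 bp with rank 29820, and the pooled list had no summit there. The replicates thus shared 1 weak elt-1 site that was not among the pooled summits, and neither of those that were.

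At the intestinal genes the signal was also low and appeared in 1 replicate at a time. The elt-2 window held 3 pooled summits with scores of 14.02, 11.8 and 7.53, at 3762, 518 and 1413 bp upstream. The first lay in an intron of the neighbouring gene C39B10.7. In replicate 1 it ranked 4929 with a score of 15.4, the highest rank of any site of the 6 genes in that replicate, and replicate 2 had no summit within 100 bp. The summit 518 bp upstream, which had a TGATAA or AGATAA within 50 bp, ranked 6985 in replicate 1 and was likewise missing from replicate 2. Only the weakest, 1413 bp upstream, was in replicate 2, ranked 14378, and there replicate 1 had none.

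The elt-7 window had the lowest pooled score of the 6, with 1 pooled summit, at V, 4770611, 59 bp upstream of the gene. Its pooled score was 6.16 and its rank 29699, near the end of the relaxed list. Replicate 1 ranked it 12585, and replicate 2 had no summit within 100 bp, its only one in the window being 1284 bp upstream with rank 15436. This lone promoter summit held a TGATAA on the minus strand. The bases around it and around the highest elt-1, elt-2 and elt-6 summits are shown for comparison with the stronger sites, with capitals as before.
elt-7, 59 bp upstream, chrV:4770561-4770661: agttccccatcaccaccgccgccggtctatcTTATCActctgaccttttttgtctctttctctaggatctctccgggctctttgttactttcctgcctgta
elt-2, 3762 bp upstream, chrX:10477428-10477528: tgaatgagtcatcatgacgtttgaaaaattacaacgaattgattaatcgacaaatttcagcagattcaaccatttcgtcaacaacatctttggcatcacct
elt-1, 1529 bp upstream, chrIV:9613416-9613516: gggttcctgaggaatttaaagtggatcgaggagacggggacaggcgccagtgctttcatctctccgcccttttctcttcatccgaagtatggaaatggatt
elt-6, 2167 bp upstream, within egl-18, chrIV:1915760-1915860: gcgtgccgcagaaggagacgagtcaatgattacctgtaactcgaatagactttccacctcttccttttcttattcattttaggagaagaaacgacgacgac

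Of the 24 distinct pooled summits, 9 (37.5%) had a summit within 100 bp in both replicates, against 20.2% of all pooled peaks below the IDR list. With 50 bp allowed, 4 of the 24 (16.7%) were in both, against 12.4%. At 100 bp, a further 8 had one in replicate 1 alone, 3 in replicate 2 alone and 4 in neither. At the same distance, all 5 that ranked between 3871 and 7740, at elt-3 and egl-18, were in both, against 64.0% of the 3870 pooled peaks of those ranks. Of the 19 lower ones, 4 were in both (21.1%), against 12.6% of all pooled peaks below rank 7740. Each match is to the pooled summit, so the summits of the replicates can lie more than 100 bp from each other. Of the 5 higher ones, that of egl-18 at 1901176 lay 95 bp from its match in replicate 2. The elt-3 summit at 13939520 lay 81 bp from its match in replicate 1, so neither was in both at 50 bp. Taking each replicate's own list, replicate 1 had 32 distinct summits in the windows and replicate 2 had 23. Of these, 8 of the 32 and 8 of the 23 lay within 100 bp of a summit of the other replicate, against 29.4% of all relaxed summits in each. Unlike the pooled shares above, the 29.4% takes in summits at IDR peaks, most of which were in both replicates. It is therefore not a like base for windows without an IDR summit, and no share was taken without those summits. Only 1 of the 24 pooled summits matched a peak among the highest 3870 of a replicate, the elt-3 site at 13936922 in replicate 2.

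**Figure D2:**
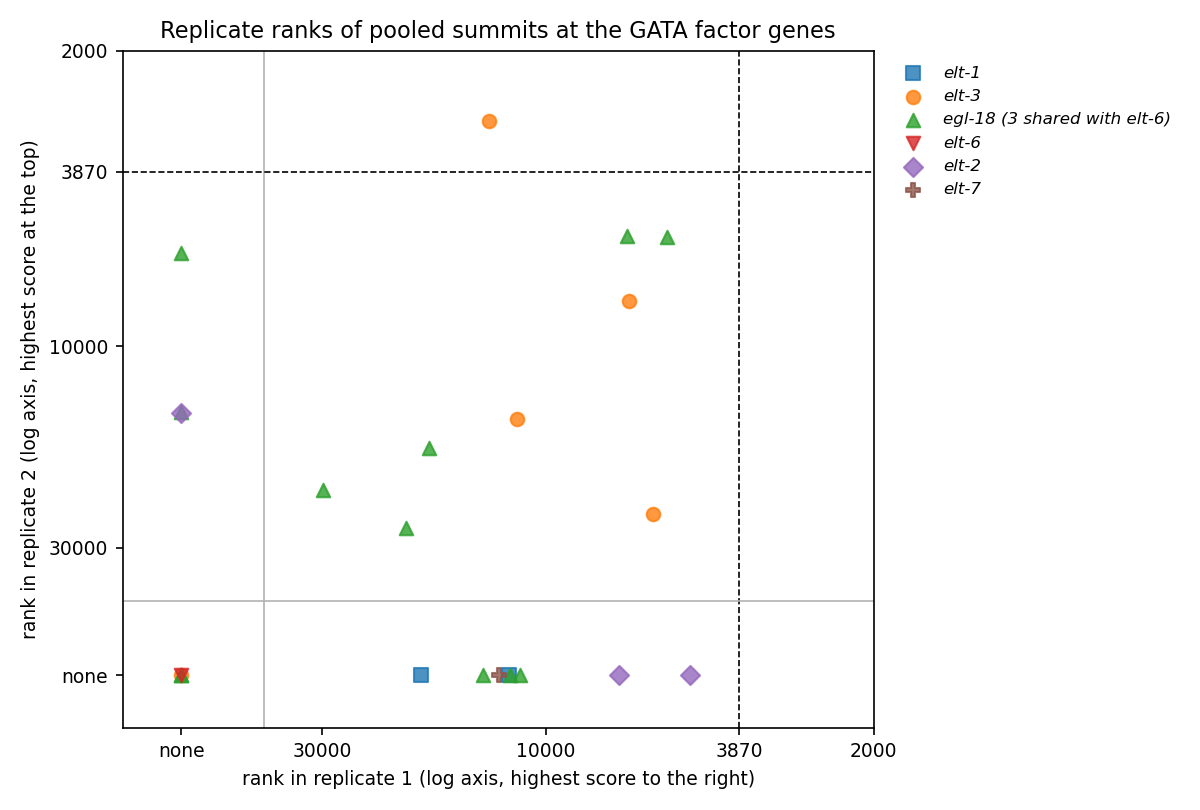
Rank of each of the 24 pooled summits in replicate 1 (x axis) and replicate 2 (y axis), both on log axes, with summits that a replicate lacks within 100 bp placed at "none". Dashed lines mark rank 3870, and only the highest elt-3 summit, ranked 2928 in replicate 2, lies beyond one of them.

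Set among all protein-coding genes by the highest pooled score in the window, the 6 genes spread from above the middle of the range to its lower part. Higher scores were found at 31.4% of genes for elt-3 (26.6), 32.5% for egl-18 (25.2), 46.4% for elt-2 (14.02), 55.7% for elt-1 (10.6), 60.8% for elt-6 (9.32) and 73.6% for elt-7 (6.16). The median of the 6 was 12.3, against 12.5 over all protein-coding genes, with windows that hold no summit counted as 0. In the quartile of longest windows, where 4 of the 6 genes fall, the median was 21.9. Counted per length, the pooled list held 24 distinct summits in 60.6 kb of windows, or 0.396 per kb. With shared summits counted once for each gene, the rate was 0.413 per kb. Counted that way it was 0.302 over all protein-coding genes and 0.344 in the quartile of longest windows. By number of IDR summits the 6 genes are tied at 0 with 73.0% of protein-coding genes, so they have no order among themselves.

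**Figure D3:**
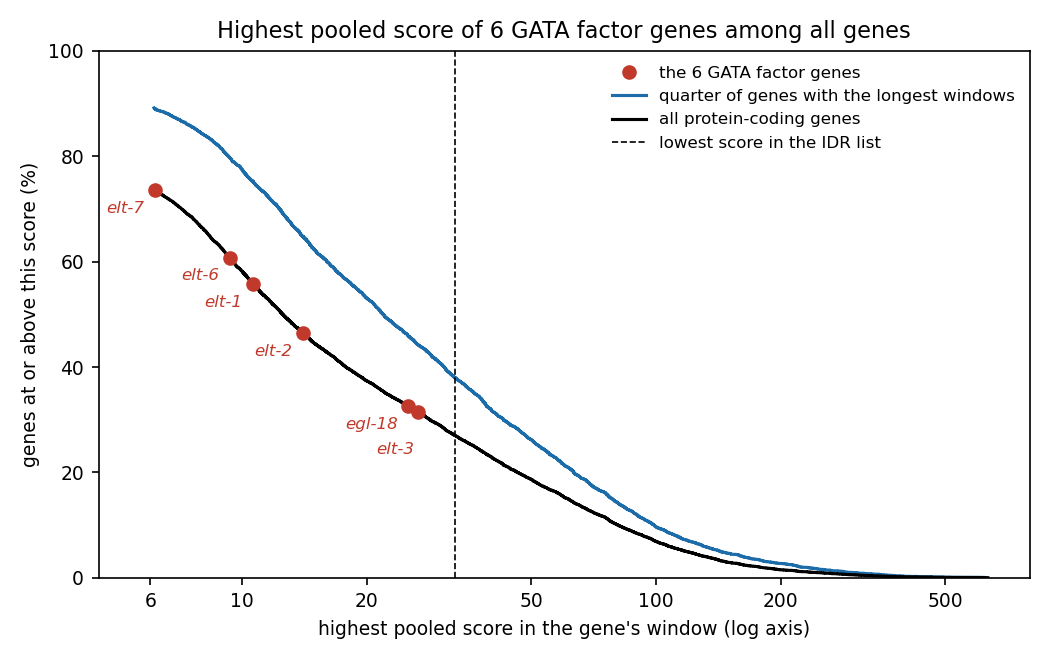
Share of genes (y axis, %) whose highest pooled score in the window reaches the value on the log x axis, for all protein-coding genes and for the quartile with the longest windows, with the 6 GATA factor genes as red points. All 6 points lie left of the dashed line at 32.7, with elt-3 and egl-18 nearest to it and elt-7 near the end of the relaxed list.

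The nearest IDR summits outside the windows were close for elt-3, near the median distance given below for elt-1, and farther for elt-2, elt-6, elt-7 and egl-18. They lay 12.9 kb beyond the window for elt-1, in an intron of mca-1, 31.6 kb for elt-6 and 35.4 kb for egl-18, both measured to the same summit, which lies in an exon of tsen-54, 34.1 kb for elt-7 and 40.6 kb for elt-2. Over the 14580 protein-coding genes with no IDR summit in their window, the median distance was 12.8 kb. Of all protein-coding genes, 36.4% lay farther from an IDR summit than elt-1, and between 11.5 and 16.2% lay farther than elt-2, elt-7, egl-18 and elt-6. The IDR summit nearest to elt-2, at X, 10435657, had no relaxed summit within 100 bp in either replicate.

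E-boxes were present in all 6 windows. The windows held 14 CACGTG sites, 8 of them at egl-18, 2 at elt-1 and 1 at each of elt-2, elt-3, elt-6 and elt-7. Since no IDR summit lies within 100 bp of the windows, only relaxed summits could stand near these sites. Within 100 bp of any relaxed pooled summit lay 1 of the 14 (7.14%), the elt-3 exon site, against 13.7% of the 17729 CACGTG sites on the nuclear chromosomes. That 13.7%, or 2421 sites, takes in the sites near an IDR summit, which were 730 of the 17729 (4.12%). It is therefore not a like base, and 1 of 14 is not read as few or many. Sites close to a 5' end were among those without a summit: one stood 50 bp upstream of elt-1, with its nearest pooled summit 1481 bp away, and one 14 bp upstream of elt-6, in the short gap after egl-18, with the nearest 744 bp away. They are shown here with 12 bases on each side.
elt-1 promoter, chrIV:9614933-9614962: tttttcacggacCACGTGgagtttcagcaa
elt-6 promoter, chrIV:1917951-1917980: aaaacaacgtcaCACGTGatttacagatga

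The share of summits with a GATA site was near that of peaks elsewhere. A TGATAA or AGATAA lay within 50 bp of 4 of the 24 relaxed summits (16.7%), 1 each at egl-18, elt-7, elt-2 and elt-3, against 14.6% of all pooled summits below the IDR list and 13.8% of IDR summits. Within 100 bp the count was 8 of 24 (33.3%), against 26.4% of all relaxed pooled summits. For CACGTG within 50 bp the counts were 1 of 24 (4.17%), 3.50% and 13.2%. By annotation 12 of the 24 summits lay in introns, 10 between genes and 2 in coding exons. Promoter windows of the 6 genes held 4, at egl-18, elt-6, elt-7 and elt-2. The windows of every annotated transcript of the 6 genes held 8, with the 4 others at internal starts of elt-3 and egl-18. No share over all genes or all pooled summits was taken for these places, so the counts are description only.

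Other genes of the same tissues were mixed, some with an IDR summit and some without. Of the remaining GATA factor genes elt-4, end-1, end-3, med-1 and med-2, which include the endoderm genes that act before elt-2, 1 of 5 had an IDR summit in the same window, against 27.0% of all protein-coding genes. This was end-3, with a pooled score of 74.4 at 2355 bp upstream and ranks of 1148 and 1524 in replicates 1 and 2. The window of the gene aip-1, also on chromosome V, had the same highest score, so the peak may be one that both windows hold. The genes med-1 and med-2 are near-identical copies, so reads there may be split or lost. Of 8 endoderm regulators that act upstream of elt-2 and elt-7, 3 had one (37.5%): end-3 again, skn-1, a regulator of endoderm and later of stress genes, with 4 IDR summits and a highest score of 110, and the beta-catenin gene sys-1 with 2 and 107. The skn-1 maximum ranked 567 in replicate 2 and had no summit within 100 bp in replicate 1.

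Of 9 epidermal regulators, 1 had an IDR summit (11.1%), the nuclear receptor gene nhr-25, with 3 summits and a highest score of 41.4. The genes nhr-23, blmp-1 and grh-1 had summits among the 7740 highest pooled peaks, with scores of 28.6, 25.6 and 21.2. Among epidermal structural and junction genes, 4 of 13 had an IDR summit (30.8%, against 27.0% of all protein-coding genes): vab-10 (116), dlg-1 (110), let-413 (43.4) and ajm-1 (37.8). The windows of vab-10 and ajm-1 are long, at 62568 and 35674 bp. The ajm-1 maximum ranked 2065 in replicate 1 and 24292 in replicate 2. Among intestinal genes, 5 of 19 had an IDR summit (26.3%), led by spl-1 (116), act-5 (45.2), pho-1 (43.4) and cpr-6 (35.6). The cpr-6 maximum had no summit within 100 bp in replicate 2. Of the 19, 12 (63.2%) had a summit among the 7740 highest peaks, against 41.8% of all protein-coding genes. By symbol, 8 of 63 ceh homeobox genes (12.7%) and 87 of 269 nhr nuclear receptor genes (32.3%) had an IDR summit. The highest there were ceh-38, ceh-5, ceh-24 and ceh-21, with 256, 81.7, 79.3 and 77.6, and nhr-19, nhr-88, nhr-31 and nhr-20, with 607, 350, 318 and 272. Genes in these lists can share windows with neighbours, and none of the shares was tested.

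**Figure D4:**
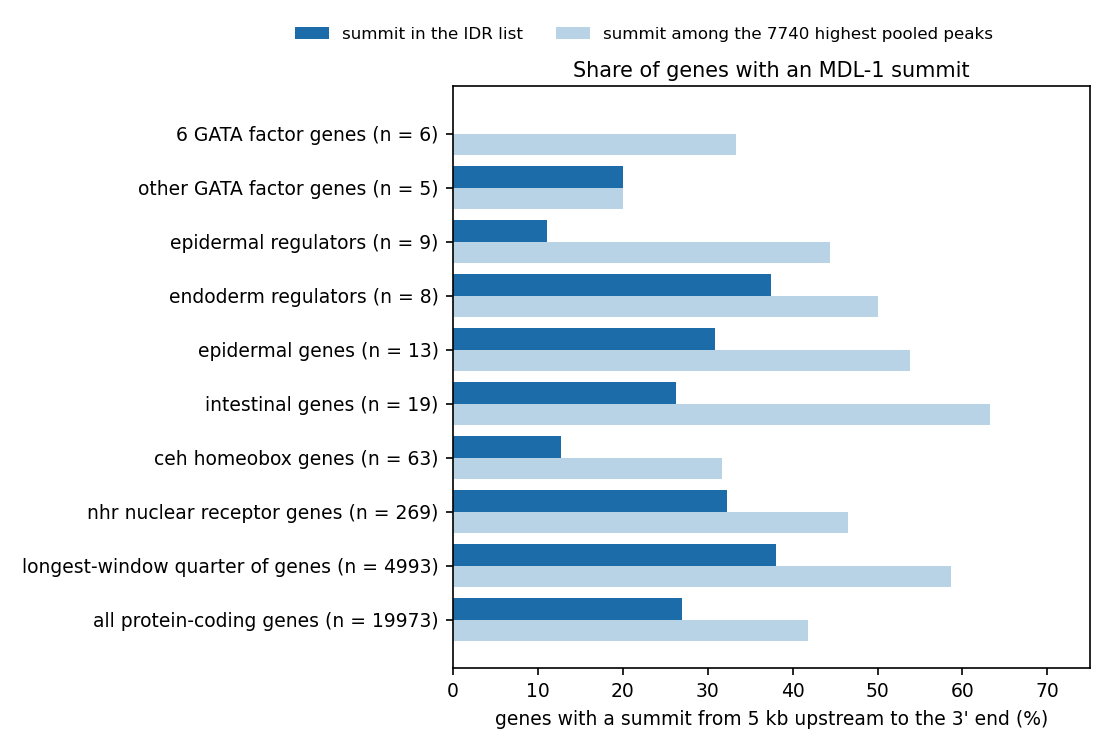
Share of genes (x axis, %) with a summit between 5 kb upstream and the 3' end, in the IDR list (dark bars) and among the 7740 highest pooled peaks (light bars), with the number of genes in each group. The 6 GATA factor genes have no dark bar and a light bar at 33.3%, against 27.0% and 41.8% for all protein-coding genes.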

How the data were processed

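Peaks were analysed from the authors' 4 lists in the ce11 build: a relaxed list for each of the 2 replicates, one for the pooled replicates, and the optimal IDR list made from these, per the deposited file inventories. The sources used here do not give the aligner, caller, IDR threshold or read totals. Each deposited list gives a caller's score, used for ranks within a list, and a q-value on the −log10 scale, not used because 3801 pooled peaks share its maximum. The IDR list equals the 3870 highest pooled peaks. Signal tracks normalized to a control are listed there too, and whether peaks were called against it is not stated. Peaks listed in ce10 were not used.

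Genes came from WBcel235, Ensembl release 115, which is ce11 (no peak ends beyond its chromosome), and bases from the RefSeq genome of that build. Summits within 100 bp were matched, and motifs searched within 50 bp on both strands. Of the 14 epidermal genes listed, 13 were found by symbol. Members and lists were chosen with earlier results of these data known. The named-gene rule covered the members' IDR summits, the highest relaxed summit of a member with none, and the 4 highest genes of each list; other relaxed summits were described after their values were seen. The biological replicates are described, with no test and no p-value. Where no IDR summit was found, relaxed summits were described instead. Functions were tested on simulated data. Python 3.11.15, numpy 2.4.6 and pandas 2.3.3 were used.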

Additional observations from a re-analysis of the deposited data

How the results depend on the processing

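The count of 0 of 6 genes with an IDR summit, and of 0 IDR summits in their windows, was also found with other settings. These were 10 kb upstream (37.0% of all protein-coding genes) and any base of a peak in place of its summit (27.7%). Narrower settings could give no other count, since their windows or peaks are part of the main ones. These were 2 kb upstream (19.4%), the upstream part ending at the nearest other protein-coding gene (19.2%), and the 1935 highest IDR peaks (15.8%). With the 7740 highest pooled peaks the count was 2 genes (41.8% of all) and 5 summits (elt-3 with 3, egl-18 with 2). Replacing the IDR list by the 3870 highest peaks of 1 replicate, which leaves out the other, gave 0 to 1 genes and 0 to 1 summits. The 1, without replicate 1, was at elt-3 (26.9% of all genes, and 26.6% without replicate 2). With the window carried 1 kb past the 3' end, chosen after seeing the data, it was 1 gene and 1 summit, again elt-3, against 29.5% of all protein-coding genes. Promoter windows with 2000 bp upstream or at every transcript lie within the main windows of the 6 genes. Their count could therefore only be 0 (16.7% and 13.9% of all genes had an IDR summit there). With no IDR summit in a window, the planned motif and replicate counts of IDR summits were 0 throughout. Counts over relaxed summits were also chosen after seeing the data. Of the 24, 4 were in both replicates at 50 bp in place of 9 at 100 bp, and 10 at 200 bp (12.4, 20.2 and 29.6% of all pooled peaks below the IDR list). With CACGTG, 1 was found at 25, 50 and 100 bp. With TGATAA or AGATAA, 4 were found at 25 and 50 bp and 8 at 100 bp, where 26.4% of all relaxed pooled summits held one. Read depth is unknown, so a missing summit means only that none was listed.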
